A study of Mus musculus with 48 samples.

Results

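Ephx1 and 9 genes known as antioxidant targets of NRF2 were followed in mice 9 days after Roux-en-Y gastric bypass (RYGB) or sham surgery. The 10 genes were Ephx1, Nqo1, Gsta4, Gstm1, Gstm3, Gclc, Gclm, Txnrd1, Srxn1 and Hmox1. They were taken by their symbols from the gene tables of 6 tissues, with 1 line for each Ensembl gene, out of between 10777 genes in the ileum and 13413 genes in white adipose tissue. All 10 genes were listed in the duodenum, the jejunum and the liver. Hmox1 was not listed in the ileum, and Gstm3 was listed neither in white adipose tissue nor in muscle. The genes were selected on their known link to NRF2 with the CPM values of these libraries known, the duodenum first, so their difference between RYGB and sham in the duodenum is given as a description, without a test. The values of the other tissues were known as well. Counts of members beside the share of all genes are therefore not independent of the selection in those tissues either.

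All mice were diet-induced obese C57Bl6 males, and all of them received a liquid elemental diet after surgery and were fasted overnight before they were killed. In RYGB, food passes from a small gastric pouch straight into the jejunum, and the duodenum is left without contact with food. The sham group underwent surgery without this rearrangement. The samples were villi scraped from the duodenum and jejunum (3 RYGB and 4 sham libraries each) and from the ileum (5 and 5), and liver, subcutaneous white adipose tissue (WAT) and gastrocnemius muscle (4 and 4 each), which makes 48 libraries. The labels give neither the ages nor whether the mice of both groups were matched for weight, and they do not say which libraries of different tissues came from the same mouse.

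NRF2, encoded by Nfe2l2, is a transcription factor that is held at a low level by KEAP1, which directs it to degradation. When KEAP1 is modified by oxidants or electrophiles, NRF2 accumulates, pairs with a small MAF protein and binds the antioxidant response element in the promoters of genes that conjugate foreign compounds, make glutathione or reduce oxidized proteins. BACH1 competes for the same element and is best known for keeping Hmox1 low. The small intestine and the liver are organs in which these enzymes meet compounds absorbed from food.

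The members cover several steps of this defence. Ephx1 encodes microsomal epoxide hydrolase, which opens reactive epoxides with water, and Nqo1 encodes a reductase of quinones. Gsta4, Gstm1 and Gstm3 encode glutathione transferases, of which GSTA4 acts on the lipid peroxidation product 4-hydroxynonenal. Gclc and Gclm encode the catalytic and the modifier subunit of glutamate-cysteine ligase, the rate-limiting enzyme of glutathione synthesis. Txnrd1 encodes cytosolic thioredoxin reductase and Srxn1 encodes sulfiredoxin, which repairs overoxidized peroxiredoxins. Hmox1 encodes heme oxygenase 1, which breaks down heme. Gstm1 and Gstm3 lie on the same strand of chromosome 3 within a cluster of similar Gstm genes, so reads shared between these copies could have been counted for the wrong one.

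In the GRCm38 assembly with the GENCODE M21 annotation, Ephx1 (ENSMUSG00000038776) spans bases 180976210 to 181020904 of chromosome 1 on the minus strand. Srxn1 (ENSMUSG00000032802) spans bases 152105516 to 152111376 of chromosome 2 on the plus strand. Gclm (ENSMUSG00000028124) spans bases 122245557 to 122270732 of chromosome 3, and Txnrd1 (ENSMUSG00000020250) spans bases 82833951 to 82897712 of chromosome 10, both on the plus strand. On chromosome 9, Gclc (ENSMUSG00000032350) starts at base 77754535 and Gsta4 (ENSMUSG00000032348) at base 78182774. Nqo1 (ENSMUSG00000003849) and Hmox1 (ENSMUSG00000005413) lie on chromosome 8.

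Promoter windows of RefSeq (GRCm38.p6), from 250 bases before to 50 bases after a start site, were available for 7 of the 10 members, with 10 windows in all. The windows were searched on both strands for TGACNNNGC, the core of the antioxidant response element, which matched in 12.4% of all 32851 mouse windows of this length. A second search, added after the windows had been read, was for TGANTCAGC, the form in which NRF2 and a small MAF protein share the site, and it matched in 1.19% of the windows. The motifs overlap, since a sequence can match both, and TGANTCAGC contains the binding site of AP-1 when N is C or G. A match was found in 3 of the 10 windows, those of Gclm, Srxn1 and the second of 3 start sites of Txnrd1. None was found in the windows of Ephx1, Nqo1, Gstm1 and Gstm3, which says nothing of sequence outside these windows. The sequences that follow are the window of Ephx1, the member with the largest absolute log2 fold change in the duodenum, and the 3 windows with a match, each written 5′ to 3′ on the strand of its gene with matching bases in capitals. The Ephx1 window is at chr1:181017520-181017819 on the minus strand and the Srxn1 window at chr2:152105274-152105573 on the plus strand. The Gclm window is at chr3:122245307-122245606 and the Txnrd1 window at chr10:82858956-82859255, both on the plus strand.
Ephx1: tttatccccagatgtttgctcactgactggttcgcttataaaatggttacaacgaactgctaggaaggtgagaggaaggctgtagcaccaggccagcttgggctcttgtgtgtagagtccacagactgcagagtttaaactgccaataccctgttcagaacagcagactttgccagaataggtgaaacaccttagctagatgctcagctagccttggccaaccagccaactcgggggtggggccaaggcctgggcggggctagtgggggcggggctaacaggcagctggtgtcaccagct
Srxn1: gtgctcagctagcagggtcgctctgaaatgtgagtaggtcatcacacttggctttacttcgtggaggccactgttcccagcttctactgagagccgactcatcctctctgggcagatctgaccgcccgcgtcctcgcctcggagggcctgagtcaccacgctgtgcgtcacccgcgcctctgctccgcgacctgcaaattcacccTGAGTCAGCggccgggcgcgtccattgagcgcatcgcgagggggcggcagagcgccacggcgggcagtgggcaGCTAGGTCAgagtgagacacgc
Gclm: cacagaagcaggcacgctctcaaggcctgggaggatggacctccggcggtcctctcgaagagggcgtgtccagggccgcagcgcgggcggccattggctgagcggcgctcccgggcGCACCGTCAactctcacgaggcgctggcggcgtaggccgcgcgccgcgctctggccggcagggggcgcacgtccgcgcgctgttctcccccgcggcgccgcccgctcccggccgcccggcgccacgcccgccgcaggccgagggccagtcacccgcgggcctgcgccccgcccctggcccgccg
Txnrd1: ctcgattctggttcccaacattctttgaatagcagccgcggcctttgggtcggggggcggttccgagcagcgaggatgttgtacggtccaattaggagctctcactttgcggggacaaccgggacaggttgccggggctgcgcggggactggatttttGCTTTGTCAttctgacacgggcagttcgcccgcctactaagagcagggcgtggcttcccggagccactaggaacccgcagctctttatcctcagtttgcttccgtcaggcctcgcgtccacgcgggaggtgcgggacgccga
In the Srxn1 window, the match TGAGTCAGC began 45 bases before the start site and also held the AP-1 letters, and a match to TGACNNNGC lay on the other strand after the start site. Gclm and Txnrd1 each held a match on the opposite strand, upstream of the start site.

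Expression is given as CPM, the reads of a gene relative to all counted reads of its library, which the authors rounded to 0.1. The depth of the libraries is unknown, since the tables hold no counts. None of the 454 values of the members was 0, and 5 were under 1 CPM. The RYGB and sham groups of a tissue were compared by limma on log2(CPM + 1), over the genes whose mean reached 1 CPM, with Benjamini-Hochberg adjustment over all genes tested in the tissue. The log2 fold change (log2FC) is RYGB minus sham on that scale, and it understates the change of genes with few CPM. A differentially expressed gene (DEG) was 1 with an adjusted p-value under 0.05 that changed at least 1.5-fold on that scale. The median log2FC of all genes tested was 0.12 in the duodenum, -0.04 in the jejunum, -0.09 in the ileum, 0.13 in the liver, 0.11 in WAT and 0.05 in muscle. With each library scaled to the median ratio of its tissue, no member changed its sign.

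The labelled tissues were checked by their markers. The epithelial markers Vil1, Cdh17, Epcam, Krt20, Alpi and Cdx2 were listed in the duodenum, jejunum and ileum, where B cell and smooth muscle markers were not listed. Hepatocyte, adipocyte and muscle fibre markers were all listed in liver, WAT and muscle, respectively. The libraries are of whole tissue or scraped villi, so fewer cells of a type and less RNA per cell cannot be told apart.

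Ephx1 was the member with the largest log2FC, in absolute size, in the duodenum. It stood at 135.9, 123.3, 202.3 and 220.3 CPM in the sham libraries and at 25.3, 14.0 and 17.8 CPM in the RYGB libraries. The groups did not overlap, and the lowest sham library was far above the highest RYGB library. Its mean was 8.96 times as high in sham as in RYGB, with a log2FC of -3.09 (SE 0.26, n = 3 and 4), and it ranked 7 by absolute log2FC among the 10850 genes tested. All 10 members had a lower mean in the RYGB group, with a median log2FC of -1.15.

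**Figure D1:**
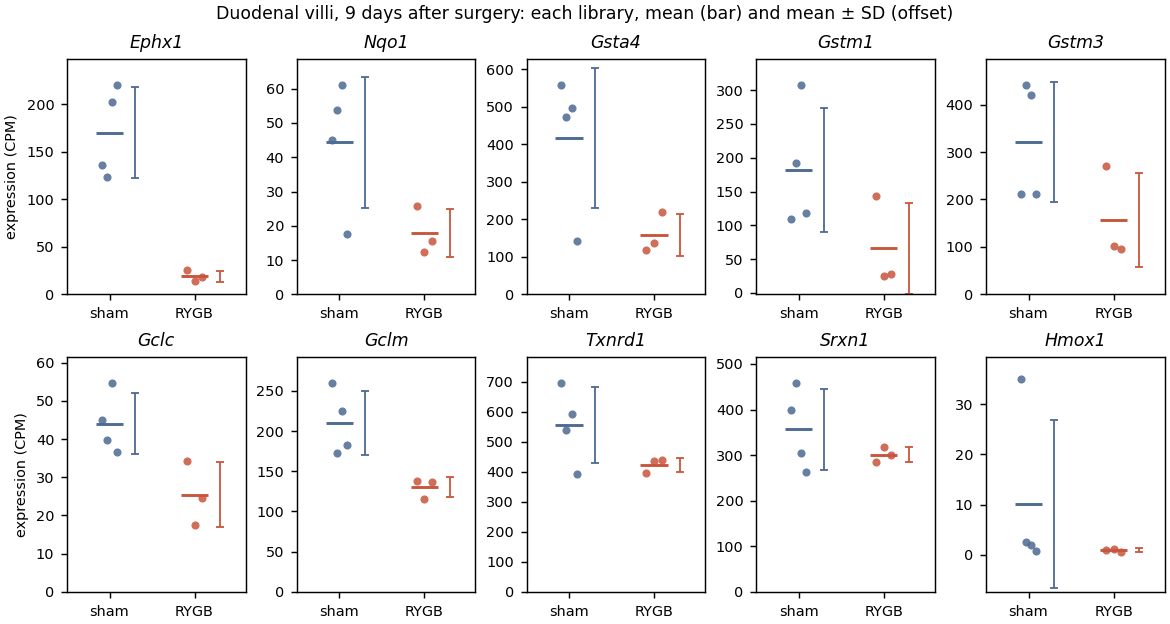
Expression in CPM (vertical axes, a separate scale for each gene) of the 10 genes in each duodenal library of the sham (blue, 4 libraries) and RYGB (red, 3 libraries) groups, with the group mean as a bar and mean ± SD beside it, which reaches under 0 where 1 library is far from the others. Every RYGB library was below every sham library for Ephx1, Gclc and Gclm.

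Both subunits of glutamate-cysteine ligase were lower in every duodenal RYGB library than in every sham library. Gclc, the catalytic subunit, stood at 44.9, 39.7, 54.7 and 36.5 CPM in sham and at 34.3, 17.4 and 24.7 CPM in RYGB (log2FC -0.80, SE 0.23). The margin between the groups was small for this gene, since RYGB replicate 1 was just under the lowest sham library. Gclm, the modifier subunit, stood at 259.9, 173.1, 224.7 and 182.6 CPM in sham and at 138.2, 115.5 and 136.3 CPM in RYGB (log2FC -0.67, SE 0.17). With Ephx1, these were the 3 of 10 members for which every RYGB library lay below every sham library, which held for 2.93% of all genes tested.

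The glutathione transferases and Nqo1 had lower means in the duodenum of the RYGB group, but with an overlap of the groups. Gsta4 stood at 557.9, 472.5, 497.7 and 141.3 CPM in sham and at 117.2, 136.7 and 221.0 CPM in RYGB. Nqo1 stood at 45.0, 53.8, 61.0 and 17.5 CPM in sham and at 25.8, 12.4 and 15.6 CPM in RYGB. In both genes sham replicate 4 lay within the range of the RYGB libraries, while the other 3 sham libraries were above all of them. Gstm1 stood at 108.7, 192.9, 307.6 and 118.2 CPM in sham and at 143.9, 24.8 and 28.5 CPM in RYGB. Gstm3 stood at 211.9, 440.8, 420.6 and 211.9 CPM in sham and at 270.5, 101.7 and 95.6 CPM in RYGB. Here RYGB replicate 1 lay within the sham range, and the other RYGB libraries were below it. The log2FC of these 4 genes was -1.27 (SE 0.47) for Gsta4, -1.19 (SE 0.42) for Nqo1, -1.80 (SE 0.61) for Gstm1 and -1.12 (SE 0.43) for Gstm3.

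Txnrd1 and Srxn1, which serve the thioredoxin system, had the smallest differences in the duodenum. Txnrd1 stood at 695.7, 538.2, 593.5 and 390.7 CPM in sham and at 395.8, 434.4 and 439.2 CPM in RYGB (log2FC -0.36, SE 0.21). Srxn1 stood at 399.1, 458.7, 304.7 and 263.6 CPM in sham and at 285.7, 317.8 and 300.4 CPM in RYGB (log2FC -0.21, SE 0.21). For both genes the RYGB libraries fell inside the sham range. Hmox1 was close to the limit of the rounding in all but 1 duodenal library, with 35.1, 2.5, 2.0 and 0.8 CPM in sham and 1.0, 1.2 and 0.5 CPM in RYGB. Its log2FC of -1.45 was -0.51 without sham replicate 1.

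Sham replicate 4 of the duodenum stood apart from the other sham libraries in more than these genes. Its summed goblet and Paneth cell markers (6 of 6 listed) were at 7311 CPM, against 2260, 2980 and 3602 CPM in the other sham libraries and 5999, 6834 and 8627 CPM in the RYGB libraries. Without it, the log2FC was -1.73 for Gsta4, -1.57 for Nqo1 and -2.96 for Ephx1. The log2FC of Ephx1 lay between -3.31 and -2.90 over the 7 libraries left out in turn. Cela1, the acinar pancreas marker that was listed, was at 1979 and 4817 CPM in sham replicates 1 and 2, at 517.5 CPM in RYGB replicate 3 and at 5.9 to 11.7 CPM in the remaining libraries. Summed T cell markers (5 of 6 listed) were at 13.0 to 40.2 CPM in sham and 35.7 to 79.7 CPM in RYGB. Summed macrophage markers (4 of 9 listed) were at 4.5 to 17.5 and 14.3 to 33.1 CPM. Both ranges overlapped between the groups, and none of these markers was a DEG. All macrophage markers listed and 4 of the T cell markers had a positive log2FC, and Trac had a negative one (-0.85). None of the defining B cell markers was listed. The part of these cell markers in the differences was not tested.

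Of 79 further genes of this defence in 8 lists, 69 were tested in the duodenum and none was a DEG, with a median log2FC of -0.30. Of all 10850 genes tested there, 0.00922% were DEGs by limma and 2040 had an unadjusted p under 0.05. The transcripts of the regulators were close between the groups. Nfe2l2 stood at 430 ± 84.6 CPM in sham and 369 ± 52.3 CPM in RYGB (SD, n = 4 and 3), and Keap1 at 47.2 ± 1.23 and 46.5 ± 1.84 CPM. Bach1 stood at 83.6 ± 20.5 and 103 ± 6.41 CPM. The adjusted p-values of limma were 0.588 for Nfe2l2, 0.943 for Keap1 and 0.378 for Bach1.

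The jejunum, which receives food directly after RYGB, was the tissue in which the members held DEGs in both directions. Of the 10 members, 5 were DEGs, compared with 9.75% of the 10854 genes tested. Srxn1, Gclc and Hmox1 rose after RYGB, and Ephx1 and Gclm fell. The number depended on single libraries. It was 2 without sham replicate 1 or 3, it was 1 without sham replicate 4 or RYGB replicate 2, and it was 3 when RYGB replicate 3 was left out. The share of all genes called in these fits is not given here, so the counts do not show whether members lost more calls than other genes. RYGB replicate 2 was also the only library of the jejunum in its sequencing lane, so a lane term gave the same result as leaving it out.

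Ephx1 stood at 11.9, 109.9, 14.8 and 57.0 CPM in the jejunum of sham mice and at 8.6, 1.0 and 2.1 CPM after RYGB. The sham libraries varied widely, with replicates 2 and 4 well above replicates 1 and 3, yet no RYGB library reached the lowest of them. The log2FC was -3.12 (SE 0.76) with an adjusted p-value of 0.0314 by limma, and the adjusted p-value was 0.0859 when sham replicate 4 was left out, 0.119 for RYGB replicate 2 and 0.0905 for RYGB replicate 3.

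The same sham replicate 2 was the highest sham library for the transferases and Nqo1 in the jejunum. Gstm1 stood at 9.6, 160.8, 26.4 and 43.2 CPM in sham and at 47.2, 8.1 and 19.9 CPM after RYGB. Gstm3 stood at 34.2, 398.7, 79.7 and 113.0 CPM in sham and at 245.5, 33.5 and 100.5 CPM after RYGB. In these genes of neighbouring loci the groups overlapped throughout, and the adjusted p-values of limma were 0.581 and 0.93. Gsta4 stood at 9.9, 140.1, 13.2 and 37.4 CPM in sham and at 94.3, 36.9 and 69.9 CPM after RYGB (log2FC 1.07, SE 0.75, adjusted p-value 0.435 by limma). Nqo1 stood at 8.4, 39.5, 12.4 and 16.6 CPM in sham and at 11.3, 10.4 and 13.8 CPM after RYGB (log2FC -0.44, SE 0.42, adjusted p-value 0.58 by limma). Without sham replicate 2, Gsta4 was a DEG with a log2FC of 1.81, and the log2FC of Gstm3 turned from -0.16 to 0.47.

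Srxn1 was the member whose rise in the jejunum remained with any single library left out. It stood at 349.9, 425.0, 372.7 and 283.0 CPM in sham and at 891.8, 798.3 and 642.6 CPM after RYGB, a mean 2.17 times as high. The log2FC was 1.12 (SE 0.19) with an adjusted p-value of 0.00727 by limma, and it remained a DEG under all 13 alternatives, with adjusted p-values between 0.00719 and 0.0347. Txnrd1, which reduces the thioredoxin that supports the same peroxiredoxins, stood at 371.2, 512.7, 412.3 and 302.4 CPM in sham and at 571.8, 556.8 and 554.6 CPM after RYGB. Its groups did not overlap, as those of 6 of the 10 members did not, against 22.2% of all genes tested, but its log2FC of 0.51 (SE 0.19) had an adjusted p-value of 0.134 by limma.

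The subunits of glutamate-cysteine ligase moved in opposite directions in the jejunum. Gclc stood at 23.6, 41.4, 35.1 and 18.6 CPM in sham and at 69.2, 72.5 and 46.8 CPM after RYGB (log2FC 1.10, SE 0.28, adjusted p-value 0.0395 by limma). Gclm stood at 235.6, 192.4, 179.5 and 199.9 CPM in sham and at 138.8, 138.5 and 86.8 CPM after RYGB (log2FC -0.75, SE 0.20, adjusted p-value 0.045 by limma). Neither gene had an overlap of the groups, and both adjusted p-values were near the threshold. Gclc remained a DEG in 6 and Gclm in 5 of 13 alternatives, which leave out a library or change the filter, the pseudocount, the scaling or the model. Hmox1 stood at 0.4, 1.9, 0.6 and 0.4 CPM in sham and at 3.9, 5.0 and 2.4 CPM after RYGB, a low level in every library. Its log2FC was 1.42 (SE 0.31) with an adjusted p-value of 0.02 by limma. Hmox1 remained a DEG in 7 of the 12 alternatives run for it, with adjusted p-values of limma up to 0.0855.

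**Figure D2:**
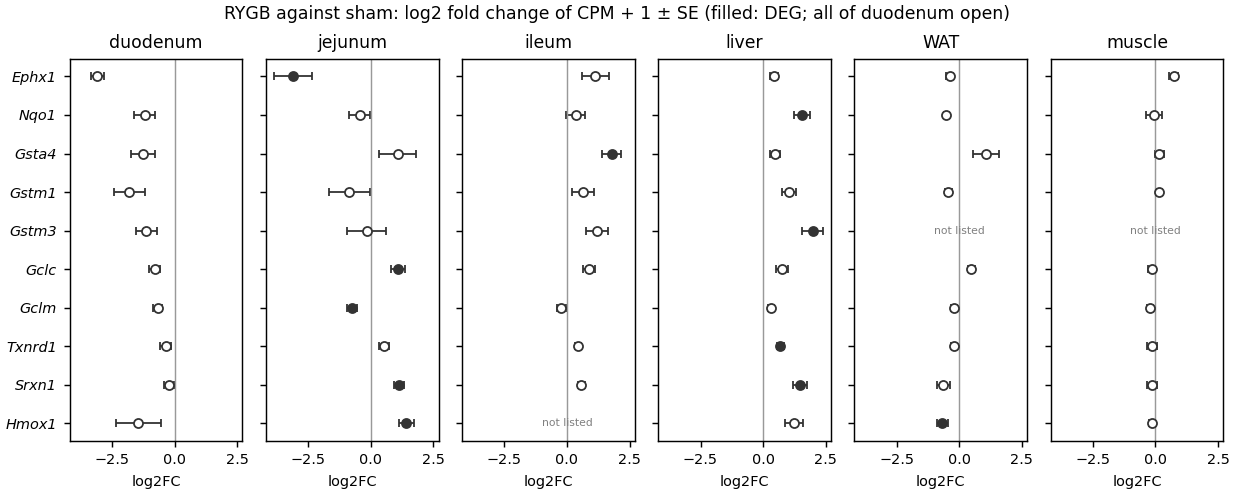
Log2 fold change of CPM + 1 (RYGB minus sham, horizontal axes) with its SE for the 10 genes (rows) in the 6 tissues (panels). Filled points are DEGs, and points of the duodenum are all drawn open because these values were used to select the genes; all 10 points lie left of 0 in the duodenum and all 10 lie right of 0 in the liver.

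Of the 79 further genes, 69 were tested in the jejunum and 10 were DEGs, of which 6 rose and 4 fell. This was a share of 14.5%, against 9.75% of all genes tested in the jejunum. Among genes of glutathione use and repair, Gpx2, the glutathione peroxidase of the intestinal epithelium, rose from 56.2 ± 18.4 to 376 ± 76.3 CPM (SD, n = 4 and 3; log2FC 2.77, adjusted p-value 0.000886 by limma), and Gsr, which returns oxidized glutathione to its reduced form, rose from 50.9 ± 13.9 to 217 ± 39.2 CPM (log2FC 2.10, adjusted p-value 0.00114 by limma). Prdx6, a peroxiredoxin that uses glutathione, rose with a log2FC of 1.33. These 3 genes were DEGs under all 13 alternatives. Maff, a small MAF protein, and the export pumps Abcc1 and Abcc3 also rose, with log2FCs of 1.09, 1.18 and 1.17. Cyp2b10 and Cyp3a11, the main target genes of the xenobiotic receptors CAR and PXR, fell with log2FCs of -3.35 and -2.86, as did Aldh1a1 (log2FC -1.67), an aldehyde dehydrogenase that makes retinoic acid, and Ephx2 (log2FC -0.81), the soluble epoxide hydrolase. Nfe2l2 itself stood at 400 ± 77.6 CPM in sham and 236 ± 86.5 CPM after RYGB (SD, n = 4 and 3), without an overlap of the groups and with an adjusted p-value of 0.0964 by limma. For Keap1 and Bach1 the adjusted p-values of limma were 0.522 and 0.157.

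Cell markers moved in the jejunum as well. The summed T cell markers (5 of 6 listed, 4 of them DEGs) ranged from 34.2 to 53.4 CPM in sham and from 7.0 to 14.1 CPM after RYGB, and all 6 goblet and Paneth cell markers had a positive log2FC, 4 of them as DEGs. The summed epithelial markers ranged from 11405 to 13412 CPM in sham and from 13557 to 16869 CPM after RYGB. Of these 6 markers, 5 had a positive log2FC and none was a DEG. Alpi went the other way, with a log2FC of -0.94 and every RYGB library below every sham library (adjusted p-value 0.0675 by limma). The part of these cell markers in the differences of the members was not tested.

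In the ileum, Gsta4 rose after RYGB, and Txnrd1 and Srxn1 were higher by less than the threshold for a DEG. Gsta4 ranged from 3.0 to 10.5 CPM (median 5.9) in the 5 sham libraries, at 5.9, 6.0, 4.6, 3.0 and 10.5 CPM, and stood at 15.7, 32.6, 8.5, 36.9 and 29.8 CPM in the RYGB libraries. Only RYGB replicate 3 lay within the sham range. The mean was 4.12 times as high after RYGB, with a log2FC of 1.79 (SE 0.38) and an adjusted p-value of 0.0176 by limma. It was the 1 DEG among the 9 members listed, against 6.05% of the 10735 genes tested, and it missed the threshold without sham replicate 3 (adjusted p-value 0.0503) or RYGB replicate 2 (adjusted p-value 0.0501).

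Srxn1 stood at 411.1, 393.9, 414.2, 404.0 and 312.1 CPM in the ileum of sham mice and at 644.2, 561.3, 736.6, 511.4 and 458.3 CPM after RYGB. Txnrd1 stood at 362.6, 351.5, 351.3, 282.0 and 363.1 CPM in sham and at 467.4, 478.2, 522.4, 468.2 and 392.7 CPM after RYGB. Every RYGB library was above every sham library for both genes, which held in either direction for 2 of 9 members and for 9.34% of all genes. The log2FC was 0.58 (SE 0.14, adjusted p-value 0.0309 by limma) for Srxn1 and 0.44 (SE 0.11, adjusted p-value 0.0329 by limma) for Txnrd1, so that both passed the adjusted p-value but not the 1.5-fold limit.

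RYGB replicate 3 differed from the other RYGB libraries of the ileum in several members. Ephx1 stood at 1.2, 3.0, 2.2, 1.0 and 9.8 CPM in sham and at 3.4, 12.6, 1.7, 15.5 and 10.8 CPM after RYGB (log2FC 1.14, SE 0.56, adjusted p-value 0.214 by limma). Gstm1 stood at 8.8, 17.6, 11.1, 10.0 and 24.1 CPM in sham and at 35.9, 32.5, 5.5, 22.4 and 28.8 CPM after RYGB (log2FC 0.64, SE 0.44, adjusted p-value 0.376 by limma). Replicate 3 was the lowest RYGB library for both of these genes. It was the highest for Gclc, the catalytic subunit, which stood at 29.2, 33.5, 38.9, 38.0 and 30.1 CPM in sham and at 70.7, 54.8, 124.9, 38.7 and 52.5 CPM after RYGB (log2FC 0.88, SE 0.25, adjusted p-value 0.0512 by limma). Without this library, 4 members were DEGs. Leaving out RYGB replicate 4 gave 3 DEGs, and leaving out RYGB replicate 5 gave 2. The share of all genes called in these fits is not given here. Gstm3 ranged from 23.9 to 79.4 CPM in sham and from 36.8 to 164.7 CPM after RYGB (adjusted p-value 0.095 by limma), Nqo1 from 3.4 to 15.5 and from 3.7 to 17.8 CPM (0.614), and Gclm from 116.2 to 174.3 and from 85.8 to 174.4 CPM (0.468). All RYGB libraries of the ileum were sequenced in 1 lane and all sham libraries in others, so the lane and the surgery cannot be told apart in this tissue.

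In the ileum, 6 of the 70 further genes tested were DEGs and all of them rose. Their share was 8.57%, against 6.05% of all genes tested in the ileum. Gsta1, an alpha class glutathione transferase like Gsta4, rose from 4.22 ± 2.25 to 35.1 ± 20.3 CPM (SD, n = 5 each; log2FC 2.65, adjusted p-value 0.00994 by limma). Me1, the malic enzyme that supplies NADPH, rose from 6.26 ± 3.12 to 77.5 ± 78.2 CPM (log2FC 3.02, adjusted p-value 0.0117 by limma), and Akr1b8, an aldo-keto reductase, rose with a log2FC of 1.14. These 3 genes were DEGs under every alternative that could be run for them. Abcc3, Por, which passes electrons to microsomal cytochromes, and the ferritin light chain Ftl1 rose with log2FCs of 1.22, 1.15 and 0.64. The adjusted p-values of limma were 0.612 for Nfe2l2, 0.678 for Keap1 and 0.975 for Bach1. The summed T cell markers (4 of 6 listed, 3 of them DEGs) were lower after RYGB, with 4.3 to 14.5 CPM against 20.2 to 51.1 CPM, and their part in these differences was not tested.

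Ephx1 had a lower level in each segment further down the sham intestine. Its mean was 170.4 ± 48.01 CPM in the duodenum, 48.4 ± 45.9 CPM in the jejunum and 3.44 ± 3.64 CPM in the ileum (SD, n = 4, 4 and 5), a level 49.5 times as high in the duodenum as in the ileum. After RYGB the means were 19.0 ± 5.75, 3.90 ± 4.11 and 8.80 ± 5.98 CPM (SD, n = 3, 3 and 5), 2.16 times as high in the duodenum as in the ileum, and the ranges of duodenum and ileum overlapped. Gsta4 had the same kind of slope, with a duodenal mean 69.6 times that of the ileum in sham and 6.41 times after RYGB, and for Gstm1 these ratios were 12.7 and 2.63. Srxn1 had nearly the same mean in the 3 segments of sham mice, at 356, 358 and 387 CPM, and after RYGB it stood at 301, 778 and 582 CPM. The tables of the tissues were normalized separately, so these ratios were not tested.

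**Figure D3:**
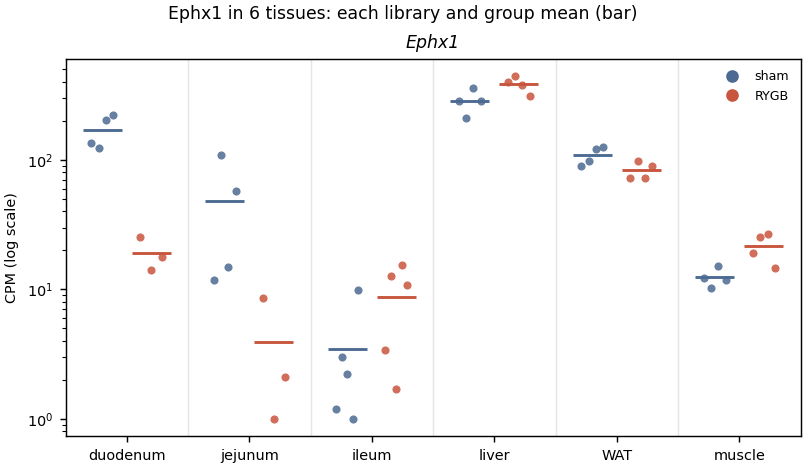
Expression of Ephx1 in CPM (vertical axis, log scale) in each library of the 6 tissues, sham in blue and RYGB in red, with group means as bars. Every RYGB library lay below every sham library in the duodenum and jejunum, whereas RYGB and sham libraries overlapped in the ileum, liver, WAT and muscle.

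Over the 6 tissues of sham mice, Ephx1 was highest in the liver (285 ± 61.7 CPM), followed by the duodenum, WAT (109 ± 17.7 CPM), the jejunum, muscle (12.4 ± 2.08 CPM) and the ileum. The ranges of neighbours in this order overlapped except between muscle and ileum. After RYGB the order was liver (383 ± 54.0 CPM), WAT (83.0 ± 12.9 CPM), muscle (21.5 ± 5.67 CPM), duodenum, ileum and jejunum, and the ranges overlapped from muscle downward. Per kilobase of exon, the level of Ephx1 in the sham duodenum was 87.4 CPM, compared with 330 for Gsta4, 245 for Gstm3, 126 for Srxn1, 124 for Gstm1, 78.3 for Txnrd1, 33.4 for Gclm, 28.5 for Nqo1, 11.7 for Gclc and 5.77 for Hmox1. In the duodenum after RYGB it was 9.76 CPM per kilobase, and only Gclc and Hmox1 stood lower.

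The liver showed higher means of all 10 members after RYGB, and 4 of them rose as DEGs, compared with 5.79% of the 11807 genes tested that were DEGs with higher expression. Nqo1, Gstm3, Txnrd1 and Srxn1 were the DEGs. For 7 of the 10 members all RYGB libraries were above all sham libraries, against 13.4% of all genes. The median log2FC was 0.89 for the members and 0.13 for all genes tested.

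Srxn1 stood at 60.8, 65.8, 74.2 and 58.2 CPM in the liver of sham mice and at 142.9, 363.2, 174.1 and 115.9 CPM after RYGB. Even the lowest RYGB library was above every sham library, and the log2FC was 1.47 (SE 0.28) with an adjusted p-value of 0.0144 by limma. It was a DEG under all 14 alternatives. Nqo1 stood at 6.5, 8.2, 12.7 and 7.1 CPM in sham and at 24.3, 55.5, 21.5 and 16.2 CPM after RYGB (log2FC 1.54, SE 0.32, adjusted p-value 0.0194 by limma). Gstm3 stood at 39.0, 46.2, 42.7 and 27.8 CPM in sham and at 315.2, 237.1, 58.6 and 124.9 CPM after RYGB (log2FC 1.97, SE 0.42, adjusted p-value 0.0206 by limma). Its mean was 4.73 times as high after RYGB, the largest ratio among the members in the liver, although RYGB replicate 3 was little above the sham libraries. Txnrd1 stood at 162.8, 175.0, 161.3 and 156.9 CPM in sham and at 237.4, 371.9, 264.1 and 213.1 CPM after RYGB (log2FC 0.69, SE 0.16, adjusted p-value 0.0252 by limma). Srxn1 was the 1 DEG among the members without sham replicate 1 or without sham replicate 4, where the adjusted p-values of the other 3 lay between 0.0529 and 0.0667. The share of all genes called in these fits is not given here.

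The remaining members of the liver were higher on average without being DEGs. Gclc stood at 241.3, 200.8, 378.9 and 329.6 CPM in sham and at 381.1, 598.0, 565.7 and 380.3 CPM after RYGB (adjusted p-value 0.0596 by limma). Gclm stood at 308.4, 241.5, 260.4 and 274.1 CPM in sham and at 332.4, 362.4, 316.0 and 338.6 CPM after RYGB (adjusted p-value 0.0941 by limma). Both subunits were thus without an overlap of the groups in the liver, as in the duodenum and jejunum. Hmox1 stood at 29.0, 38.3, 42.4 and 26.8 CPM in sham and at 64.9, 208.4, 53.7 and 57.0 CPM after RYGB, with 1 RYGB library far above the rest (adjusted p-value 0.0608 by limma). Gstm1, the most abundant member of the liver, stood at 802.3, 796.8, 1427.6 and 675.8 CPM in sham and at 2837.1, 2159.2, 1178.1 and 1504.0 CPM after RYGB (adjusted p-value 0.0534 by limma). For Ephx1 the log2FC was 0.44 (SE 0.17, adjusted p-value 0.126 by limma) and for Gsta4 it was 0.47 (SE 0.20, adjusted p-value 0.156 by limma), with overlapping groups. With the sequencing lane in the model, 7 members were DEGs, which added Gstm1, Gclc and Hmox1. The share of all genes called in that model is not given here.

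RYGB replicate 2 was the highest RYGB library of the liver for Ephx1, Nqo1, Gclc, Gclm, Txnrd1, Srxn1 and Hmox1. Its summed macrophage markers (9 of 9 listed, 2 of them DEGs with higher expression) were at 2697 CPM, against 859.9 to 928.3 CPM in the other RYGB libraries and 356.6 to 620.7 CPM in the sham libraries. Without this library 4 members were DEGs, Txnrd1 no longer reached 1.5-fold (log2FC 0.53), and Hmox1 became a DEG with a log2FC of 0.78. The share of all genes called without it is not given here. The part of macrophages in these differences was not tested.

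**Figure D4:**
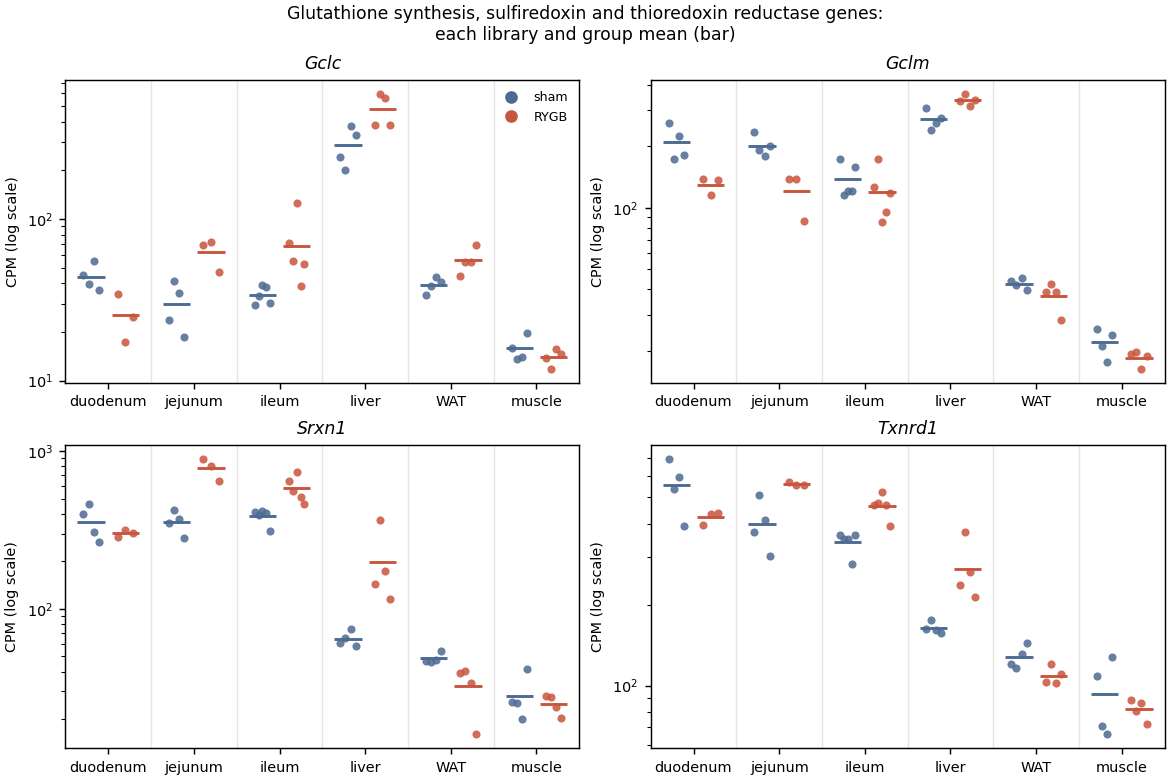
Expression in CPM (vertical axes, log scale) of Gclc, Gclm, Srxn1 and Txnrd1 in each library of the 6 tissues, sham in blue and RYGB in red, with group means as bars. Gclc was lower after RYGB in every duodenal library and higher in every jejunal and liver library, and Srxn1 was higher in every RYGB library of the jejunum, ileum and liver.

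Of the 73 further genes tested in the liver, 14 were DEGs, of which 13 rose and 1 fell. This was a share of 19.2%, against 7.08% of all genes tested in the liver. Among the regulators, the small MAF genes Maff and Mafk and the autophagy receptor Sqstm1, which binds KEAP1, rose with log2FCs of 1.23, 0.60 and 0.75. Gss and Gsr, for the second step of glutathione synthesis and for its recycling, rose with log2FCs of 0.94 and 0.63, and the microsomal transferase Mgst3 rose with 1.14. Of the 7 DEGs for conjugation and efflux, the carbonyl reductases Cbr3 and Cbr1 and the pump Abcc1 had the largest log2FCs, at 2.53, 1.48 and 1.28. Cbr3 was at 1.05 ± 1.17 CPM in sham and 14.2 ± 15.4 CPM after RYGB (SD, n = 4 each), so its RYGB libraries varied widely. The others of these 7 were Akr1b8, Abcc4, Ugt2b35 and Ugdh. Me1 was the gene that fell (log2FC -0.94, adjusted p-value 0.0275 by limma), from 170 ± 61.5 to 84.4 ± 9.02 CPM, whereas in the ileum it rose. In the duodenum its log2FC was -2.90, without an overlap of the groups (adjusted p-value 0.0933 by limma). In the jejunum its log2FC was -1.88, with overlapping groups (adjusted p-value 0.281 by limma). Of these genes, Maff, Abcc1 and Akr1b8 were DEGs under all 13 alternatives run for them. Nfe2l2, at 94.6 ± 16.4 CPM in sham and 97.0 ± 15.3 CPM after RYGB, and Keap1 had adjusted p-values of 0.886 and 0.665 by limma, and that of Bach1 was 0.058.

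In WAT, 24.1% of the 13379 genes tested were DEGs, and 1 of the 9 members listed was a DEG. Hmox1 fell from 75.3, 114.9, 173.0 and 111.4 CPM in sham to 61.7, 75.3, 62.5 and 85.7 CPM after RYGB, with a log2FC of -0.68 (SE 0.23) and an adjusted p-value of 0.046 by limma. Its groups overlapped, and it lost significance when any of 6 single libraries was left out, or with the lane in the model. Nqo1 was below every sham library in all RYGB libraries, at 5.3, 5.9, 5.1 and 4.7 CPM against 7.6, 7.4, 8.2 and 8.4 CPM, with a log2FC of -0.51 under the 1.5-fold limit (SE 0.11, adjusted p-value 0.0111 by limma). Gstm1 stood at 154.3, 157.3, 150.3 and 154.6 CPM in sham and at 126.9, 134.9, 114.3 and 83.9 CPM after RYGB (log2FC -0.44, SE 0.14, adjusted p-value 0.0403 by limma). The sham libraries agreed closely for this gene, and all RYGB libraries were below them.

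Gclc differed from the other members of WAT in that every RYGB library was above every sham library. It stood at 33.9, 38.6, 43.7 and 40.5 CPM in sham and at 44.2, 54.6, 54.2 and 69.5 CPM after RYGB (log2FC 0.48, SE 0.14, adjusted p-value 0.0292 by limma). Srxn1 stood at 46.9, 45.8, 47.8 and 54.4 CPM in sham and at 39.2, 40.6, 34.2 and 16.1 CPM after RYGB (log2FC -0.65, SE 0.26, adjusted p-value 0.0772 by limma). In all, 4 of 9 members had groups that did not overlap, against 41.2% of all genes tested in this tissue. Ephx1, Gsta4, Gclm and Txnrd1 had overlapping groups, with log2FCs of -0.38, 1.07, -0.21 and -0.23 and adjusted p-values between 0.0708 and 0.222 by limma.

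The WAT libraries of the RYGB group also held RNA of lymphocytes. The summed B cell markers (6 of 6 listed, all DEGs) ranged from 809 to 2091.1 CPM after RYGB and from 6.7 to 16.3 CPM in sham, and the summed T cell markers (6 of 6 DEGs) from 256.3 to 964.4 and from 8.0 to 14.4 CPM. The summed adipocyte markers ranged from 6437 to 12128 CPM after RYGB and from 13598 to 20141 CPM in sham. Macrophage markers (9 of 9 listed) held 1 DEG that rose and 3 that fell. The part of these cells in the differences of the members was not tested.

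Of the 68 further genes tested in WAT, 2 rose and 5 fell as DEGs. Their share of 10.3% was under the 24.1% of all genes tested in WAT. Slc7a11, the cystine transporter that feeds glutathione synthesis, rose from 0.975 ± 0.263 to 23.0 ± 12.9 CPM (SD, n = 4 each; log2FC 3.47, adjusted p-value 0.000241 by limma), and the microsomal transferase Mgst2 rose with a log2FC of 1.17. Txnip, the inhibitor of thioredoxin, Mgst3, Abcc3, the heme transporter Slc48a1 and Ftl1 fell with log2FCs of -1.01, -0.90, -0.77, -0.71 and -0.63. Slc7a11, Mgst2 and Abcc3 were DEGs under all 14 alternatives. The adjusted p-values of limma were 0.0554 for Nfe2l2, 0.735 for Keap1 and 0.179 for Bach1.

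In muscle, none of the 9 members listed and none of the 11966 genes tested was a DEG by limma (0% of the genes), while 1746 genes had an unadjusted p under 0.05. Ephx1 was the member with the largest difference, at 12.3, 10.2, 15.2 and 11.8 CPM in sham and 19.2, 25.3, 26.9 and 14.6 CPM after RYGB (log2FC 0.73, SE 0.19, adjusted p-value 0.14 by limma). RYGB replicate 4 was the library that lay within the sham range. Without it, Ephx1 was a DEG, with a log2FC of 0.89. The share of all genes called in that fit is not given here. The log2FCs of the other 8 members lay between -0.23 and 0.14, and none of their adjusted p-values was under 0.432. None of the 58 further genes tested was a DEG, and the adjusted p-values of limma were 0.405 for Nfe2l2, 0.847 for Keap1 and 0.82 for Bach1. The summed muscle fibre markers (6 of 6 listed) ranged from 145028 to 178204 CPM in sham and from 106170 to 141337 CPM after RYGB. Summed smooth muscle markers (4 of 5 listed) ranged from 2686 to 2919 CPM in sham and from 3807 to 4110 CPM after RYGB. The part of these cell markers in the differences of the members was not tested.

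Some members also varied together among libraries of the same group. For this, each library was set against the mean of its tissue and surgery group on the log2(CPM + 1) scale, which removes the tissue and the surgery. Among 8721 other genes tested in all 6 tissues, the genes most like Ephx1 over the 48 libraries were Gstm4 (Pearson's r 0.80, Spearman's rho 0.67), a further mu class transferase, Galk1 (0.78 and 0.70), Slc25a11 (0.78 and 0.69), Hsd17b4 (0.76 and 0.66) and Dhrs4 (0.75 and 0.71). Gstm1 ranked 8 with a Pearson's r of 0.73 and a Spearman's rho of 0.60, and Gsta4 and Nqo1 ranked 141 and 290 with a Pearson's r of 0.62 and 0.58. Gstm3, which is listed in 32 of the libraries, had a Pearson's r of 0.69. By contrast, Gclc, Gclm, Txnrd1, Srxn1 and Hmox1 had a Pearson's r between -0.14 and 0.15 with Ephx1.

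**Figure D5:**
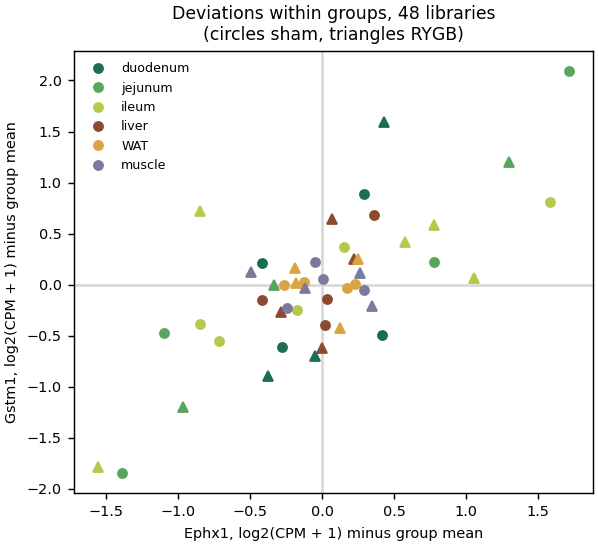
Deviation of each library from the mean of its tissue and surgery group on the log2(CPM + 1) scale, for Ephx1 (horizontal axis) and Gstm1 (vertical axis), with circles for sham and triangles for RYGB. The widest spread is among jejunum and ileum libraries, and the points of liver, WAT and muscle lie near 0 on the horizontal axis.

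The libraries farthest from the median for Ephx1 were sham replicate 2 of the jejunum and sham replicate 5 of the ileum, and without them the Pearson's r of Ephx1 was 0.67 with Gstm1, 0.51 with Gsta4 and 0.47 with Nqo1. In the 24 libraries of the intestine, Pearson's r was 0.77 with Gstm1, 0.76 with Gsta4, 0.76 with Gstm3 and 0.67 with Nqo1, and in the 24 libraries of liver, WAT and muscle it was 0.22 with Gstm1, -0.11 with Gsta4, 0.30 with Nqo1, 0.47 with Gclc, 0.25 with Txnrd1, 0.18 with Srxn1 and -0.12 with Gclm. Hmox1, with values in each of these 24 libraries, had a Pearson's r of 0.39. The 5 genes most like Ephx1 had a Pearson's r between 0.84 and 0.88 with it in the intestine. In liver, WAT and muscle it was 0.096 for Gstm4, 0.52 for Galk1, 0.21 for Slc25a11, 0.27 for Hsd17b4 and 0.63 for Dhrs4. Genes of a library share its depth, its composition and the place along the intestine where it was taken, so these correlations are a description and were not tested.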

How the data were processed

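The tables deposited by the authors hold the 48 libraries by tissue, and the libraries were made with the Illumina TruSeq Stranded mRNA kit. The deposited values are CPM by their size, rounded to 0.1, and columns summed to between 925122 and 998777 once repeated lines were counted once. The submitters' processing notes name HTSeq and the GRCm38 build, and the aligner, the versions and the annotation are not given in the sources used here. Repeated lines occurred in all 6 tissues and were counted once. In the liver, 12 broken lines, which held numbers of another kind, were left out. The values of all tissues were then used as CPM. Without counts, the number of reads behind a value is unknown, and p-values measure the spread between libraries.

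Surgery groups were compared tissue by tissue with limma 3.58.1 in R 4.3.3 (empirical Bayes with a trend, two-sided) on log2(CPM + 1), over genes whose mean reached 1 CPM, with Benjamini-Hochberg adjustment. The replicate number and the lane were not in the model. The files were read in Python 3.11.15 with pandas 2.3.3 and with numpy 2.4.6. Alternatives were a pseudocount of 0.1, no filter, a minimum of 10 CPM, median-ratio scaling, the replicate number as a block, the lane, an adjusted p-value under 0.05 alone and each library left out. On simulated data for the duodenum with 200 changed genes among 10850, the method called 66 of 100 genes with a log2 change of 1 and 87 of 100 with a change of 2, with 4 false calls. For the jejunum it called 50 and 98 of 100, with 3 false calls. Changed genes were drawn from genes of higher expression, and the noise was independent between genes. These rates need not hold for the real libraries. In every tissue, no more than 3.15% of values were equal between any 2 of its libraries, so none was a repeat of another. Members and lists were chosen with earlier results of these data known. Named genes were all members, up to 3 DEGs in each direction from each list and tissue with the largest log2FC, Nfe2l2, Keap1 and Bach1, and the 5 genes most correlated with Ephx1. The 8 lists cover regulators, glutathione synthesis and recycling, other glutathione transferases, thioredoxin and peroxiredoxin, NADPH supply, conjugation and efflux, iron and heme, and xenobiotic receptors and their targets. Akr1b8, Abcc4, Ugt2b35 and Ugdh in the liver are named beyond this rule.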

Additional observations from a re-analysis of the deposited data

Results flagged for a closer look

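In 94 groups of 4 or more libraries, Dixon's test at the 95% level marked 5 libraries as far from the rest of their group, and chance alone marks about 1 in 20 groups (4.7 of 94). Each is given with the gap to its nearest neighbour divided by the range of the group on the log2 scale. Gsta4 in sham replicate 4 of the duodenum was at 141.3 CPM, the nearest sham library at 472.5 CPM, and the ratio was 0.879. Gstm1 in RYGB replicate 3 of the ileum was at 5.5 CPM, next to 22.4 CPM (ratio 0.738). Hmox1 in RYGB replicate 2 of the liver was at 208.4 CPM, next to 64.9 CPM (ratio 0.861). Srxn1 in sham replicate 5 of the ileum was at 312.1 CPM, next to 393.9 CPM (ratio 0.822). Txnrd1 in sham replicate 4 of the ileum was at 282.0 CPM, next to 351.3 CPM (ratio 0.869).

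For 4 genes, all RYGB libraries were above all sham libraries in at least 1 tissue, and the reverse held elsewhere, over 9 pairs of tissues. In either direction, groups did not overlap for 15.6% of all genes tested in the duodenum and 22.2% in the jejunum. The share was 9.34% in the ileum, 16.4% in the liver and 41.2% in WAT. How many of all genes had such opposite pairs was not counted, and the duodenal values were used to select the members. These differences between tissues were not tested, because each table had its own normalization. Gclc was higher in the jejunum, liver and WAT and lower in the duodenum, and the log2FC differed from that of the duodenum by 1.90, 1.55 and 1.28. Gclm was higher in the liver and lower in the duodenum and jejunum, with differences of 0.99 and 1.07. Srxn1 was lower in WAT and higher in the jejunum, ileum and liver, with differences of 1.77, 1.22 and 2.11. Nqo1 was higher in the liver and lower in WAT, with a difference of 2.06.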

How the results depend on the processing

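The number of members that were DEGs changed with single libraries. Shares of all genes called under the same settings are not given beside these counts. The counts therefore do not show whether members changed more than other genes. With each library left out in turn, the number of members called lay between 1 and 5 in the jejunum. It was 0 to 4 in the ileum, 1 to 6 in the liver, 0 to 2 in WAT and 0 to 1 in muscle. Members in the duodenum are left out of these counts, since their values there were used to select them. For further genes the ranges were 0 to 8 in the duodenum, 4 to 9 in the jejunum and 3 to 8 in the ileum. They were 6 to 17 in the liver, 3 to 10 in WAT and 0 to 1 in muscle. With the lane in the model, 1 member was a DEG in the jejunum and 7 in the liver, and 4 further genes in the jejunum. The replicate number as a block gave 2 members each in the ileum and WAT, and 3 further genes in the duodenum and 2 in muscle. The deviations of equally numbered RYGB and sham libraries had correlations across genes from -0.28 to 0.39. In none of the tissues were they over 0.1 for all pairs. With few pairs in each tissue, this cannot tell whether libraries of the same number share more than the number. Median-ratio scaling gave 2 members in WAT, and 12, 7 and 11 further genes in the ileum, liver and WAT. A minimum of 10 CPM gave 8 further genes in the liver. By the adjusted p-value alone, 3 members were called in the ileum and 4 in WAT. The log2FC of Gstm3 in the jejunum lay between -0.85 and 0.57 and turned to 0.57 with the lane in the model or without RYGB replicate 2 and to 0.47 without sham replicate 2. In muscle, that of Srxn1 turned to 0.12 with the lane and 0.070 without sham replicate 4 (lowest -0.27 with a library left out), that of Nqo1 to 0.093, 0.19 and 0.084 without sham replicate 1, sham replicate 4 and RYGB replicate 4 (lowest -0.36), and that of Txnrd1 to 0.034 (lowest -0.28) without sham replicate 4. For none of these changes was the cause tested. The alternatives for the further genes and the correlations in the intestine alone were chosen after seeing the data. Depth is unknown, and rounding to 0.1 CPM limits Hmox1 in the duodenum and jejunum.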

Other observations

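The genes of the 8 lists, which were tested as single genes, had different balances of direction in the 6 tissues. In the duodenum 51 of 69 had a negative log2FC, although 66.6% of all genes tested there had a positive one. All 6 genes of NADPH supply, 9 of 11 genes of conjugation and efflux and 12 of 16 other glutathione transferases were among them, with medians of -0.46, -0.46 and -0.40. None of these single genes was a DEG in the duodenum. In the jejunum 32 of 69 had a positive log2FC, beside 45.5% of all genes tested there, and in the ileum 49 of 70, beside 38.4%. In the liver 59 of 73 had a positive log2FC, beside 71% of all genes tested there, with all 10 regulators, all 6 genes of iron and heme and 14 of 15 genes of conjugation and efflux. The other glutathione transferases were divided in the liver, with 9 positive and 8 negative and a median of 0.12. In WAT 47 of 68 had a negative log2FC, beside 59% of all genes with a positive one, and all 6 genes of iron and heme were negative. In muscle 41 of 58 were positive, beside 62.9% of all genes tested there, with a median of 0.05 for both.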
